A study of Mus musculus with 13 samples.

Results

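Malat1, Neat1, Gm42418, Gm26917 and Kcnq1ot1 are 5 noncoding RNAs that were read alongside messenger RNA in mouse melanoma cells recovered from lung metastases. They are 5 of the 22656 genes in the deposited table, found by matching those symbols to the table's gene identifiers. They were chosen by name with the normalised counts and the genotype differences of these same 13 libraries in view. Their differences between groups are therefore given as a description, with no test. All 5 were measured in every library, and all 5 were well above the minimum mean of 10 normalised counts set for testing. Of the libraries, 8 came from APOE2 and 5 from APOE3 knock-in hosts, that is, mice in which a human apolipoprotein E allele replaces the mouse gene. Every host received the same cells, the mouse melanoma line B16F10-TR-shApoe, which carries a hairpin RNA directed at mouse Apoe. Per the labels, 100000 cells in saline entered a tail vein, and lungs were taken at day 15 and digested with collagenase. Cells low in the dead-cell dye TO-PRO-3, negative for the leukocyte antigen CD45 and positive for GFP were sorted. Their total RNA went into 3′ end libraries (QuantSeq FWD), which are primed at adenine stretches by oligo-dT. The labels give no age or sex of the hosts, all libraries rest on 1 tumour line, and cells without the hairpin were not analysed here. The labels do not say that each library is a separate mouse, so p-values measure the spread between these libraries only.

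Malat1 and Neat1 are long nuclear RNAs of neighbouring genes. Malat1 gathers in nuclear speckles, bodies rich in splicing factors, and Neat1 is the scaffold of paraspeckles, around which proteins such as NONO and SFPQ assemble. The mature end of Malat1 and of the long Neat1 transcript is not made by ordinary polyadenylation: RNase P cuts just before a tRNA-like fold, and the new end is protected by a triple helix in which an adenine-rich tract pairs with uridine-rich stretches. Kcnq1ot1 is a very long antisense RNA made from the paternal allele inside Kcnq1, where it silences neighbouring imprinted genes. Gm42418 and Gm26917 are predicted genes in a stretch of chromosome 17 that is related to ribosomal RNA, and their reads are often taken as a measure of ribosomal RNA in a library. Ribosomal RNA carries no long poly(A) tail, so a library primed by oligo-dT should hold little of it.

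Because priming needs adenines, the stretches richest in them are shown first, from the GENCODE M21 transcripts on GRCm38, the build that the processing notes call mm10. Malat1 (chr19:5795690-5802672, minus strand) and Neat1 (chr19:5824708-5845478, minus strand) are annotated as long intergenic RNAs 22035 bases apart. Malat1 is 6983 bases long and holds 1 run of at least 8 adenines, of 12 adenines, which ends 298 bases before the transcript's end. Its window (chr19:5795920-5796089, minus strand) is shown with that run in capitals, together with the 16 bases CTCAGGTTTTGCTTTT, the longest stretch that it shares with the end of the long Neat1 transcript. That end (chr19:5824708-5824767, minus strand) has the same 16 bases in capitals, 43 bases before its last base. The most adenine-rich 20 bases of Neat1 (chr19:5834058-5834157, minus strand), with 17 adenines, and the end of the short Neat1 transcript (chr19:5842307-5842386, minus strand), with its poly(A) signal AATAAA in capitals, follow. The longest run of all, 41 adenines in capitals, lies in Kcnq1ot1 (chr7:143226915-143227015, minus strand).
Malat1: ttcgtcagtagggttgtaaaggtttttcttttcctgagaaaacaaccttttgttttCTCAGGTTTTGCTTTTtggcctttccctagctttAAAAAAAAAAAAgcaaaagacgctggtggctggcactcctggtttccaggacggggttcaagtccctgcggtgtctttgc
Neat1 long transcript end: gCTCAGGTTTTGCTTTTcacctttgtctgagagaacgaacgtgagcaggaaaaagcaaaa
Neat1: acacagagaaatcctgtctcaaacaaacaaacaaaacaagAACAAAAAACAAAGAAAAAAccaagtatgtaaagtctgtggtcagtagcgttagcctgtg
Neat1 short transcript end: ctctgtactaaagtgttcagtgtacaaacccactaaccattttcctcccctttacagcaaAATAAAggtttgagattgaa
Kcnq1ot1: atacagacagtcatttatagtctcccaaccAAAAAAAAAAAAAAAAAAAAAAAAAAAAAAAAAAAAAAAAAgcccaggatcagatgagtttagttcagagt

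The 16-base stretch was found on the transcript strand of 2 of 55450 annotated genes, Malat1 and Neat1. In Malat1 it starts at base 6640, shortly before the run of 12 adenines, and the tRNA-like part follows that run. Neat1 has no run of at least 8 adenines in its 20771 bases, whereas 70.7% of the 41 genes of like length (the shorter at least 0.8 of the longer) have one. For Malat1 the share among 2355 genes of like length was 57.2%. Kcnq1ot1, annotated as antisense at chr7:143203458-143296549 on the minus strand, is 93092 bases long and holds 30 such runs. The signal AATAAA, searched on the transcript strand only, was found in the last 50 bases of Malat1, Kcnq1ot1 and the short Neat1 transcript, and in 30.5% of 55377 genes.

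The pair on chromosome 17 looks different. Gm26917 (chr17:39843013-39846341) and Gm42418 (chr17:39846958-39848788) are annotated as long intergenic RNAs on the plus strand, 616 bases apart. Their most adenine-rich 20 bases are in capitals, with 11 adenines in Gm42418 (chr17:39847127-39847226, plus strand) and 9 in Gm26917 (chr17:39845116-39845215, plus strand).
Gm42418: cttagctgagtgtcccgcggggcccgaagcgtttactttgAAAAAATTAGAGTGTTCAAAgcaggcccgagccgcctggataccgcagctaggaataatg
Gm26917: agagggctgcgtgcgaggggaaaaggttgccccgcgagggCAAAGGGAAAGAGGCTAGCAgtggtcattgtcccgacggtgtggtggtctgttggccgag

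Neither has a run of at least 8 adenines: the longest has 6 in Gm42418 and 4 in Gm26917. A run of that size was present in 19.3% of the 7309 genes of like length for Gm42418 and in 33.0% of 7840 for Gm26917. Both are rich in G and C, at 60.2% and 69.1%, against 42.5% for Malat1, 47.3% for Neat1 and 40.3% for Kcnq1ot1. The letters AATAAA were not in the last 50 bases of either. Gm42418 shares 1822 exon bases with CT010467.1, a gene typed as rRNA on the opposite strand, and 923 with AY036118, also on the opposite strand. Of the 1801 stretches of 31 bases in Gm42418, 96.3% occur in those opposite-strand genes and 0 in another gene on its own strand. The table gives CT010467.1 only 2 reads, in 1 library, and AY036118 was not analysed here. Whether counting used strand, and how reads that fit many places were treated, is not given in the sources used here, so the level of Gm42418 is uncertain to that extent. Gm26917 shares no stretch of 31 bases with another annotated gene.

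**Figure D1:**
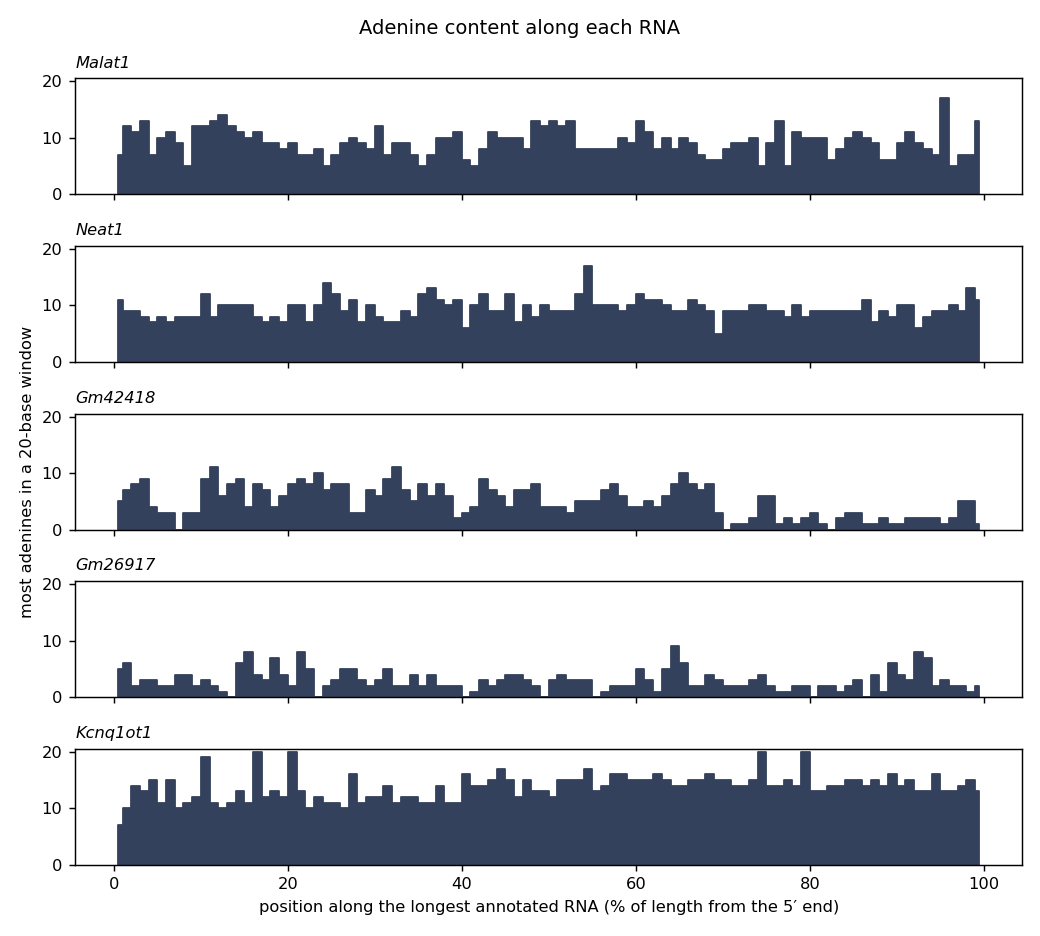
Adenines along each RNA: the horizontal axis is the position from the 5′ end as a percent of the longest annotated transcript, and the bars give the most adenines in any 20-base window that falls in each bin. Malat1 reaches 17 near its end, Neat1 17 near its middle and Kcnq1ot1 20 in several places, while Gm42418 reaches 11 and Gm26917 reaches 9.

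The 13 libraries held 7080308 to 13039989 reads. All 10 melanocyte markers, among them the pigment enzyme Dct and the melanosome protein Pmel, had reads in every library. Out of 1000000 reads they summed to between 36848 and 52668 in APOE2 and between 27520 and 39118 in APOE3. Dct was the largest part of that sum, with 2.11% to 3.64% of all reads in APOE2 and 1.24% to 2.40% in APOE3. Over the 10 markers, 7 log2 differences (APOE2 minus APOE3) were positive and 3 negative, with a median of 0.08. In limma, 98 of 12403 genes tested differed between genotypes (Benjamini-Hochberg adjusted p under 0.05), or 0.790%, with 51 higher (0.411%) and 47 lower (0.379%) in APOE2. The libraries of the genotypes did not overlap for 122 genes, or 0.984%. Among the 5 noncoding RNAs 1, Malat1, was called and did not overlap, and since they were chosen on this contrast, nothing is read from those counts. In bulk RNA, fewer cells of a type and less RNA per cell cannot be told apart.

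Malat1 (ENSMUSG00000092341) was the one member that was higher in every APOE2 library than in any APOE3 library. Normalised counts, which are reads divided by a size factor for each library, had a lowest value of 29564, a median of 32597 and a highest of 64576 in APOE2. In APOE3 they were 21386, 25938, 22061, 25860 and 16154 for replicates 1 to 5. APOE2 replicates 1 (64576), 2 (54592) and 5 (42685) lay above the other 5 APOE2 libraries, which sat together between 29564 and 33991. The means were 39688 ± 13249.9 (SD, n = 8) and 22280.0 ± 4018 (SD, n = 5), a log2 difference of 0.79 ± 0.18 (SE), or 1.73-fold. The coefficient of variation between libraries was 33.4% in APOE2 and 18.0% in APOE3. As a share of all reads Malat1 took 0.352% to 0.727% in APOE2 and 0.197% to 0.312% in APOE3.

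As a limit on the description, the Malat1 difference did not pass the threshold in every setting. Since Malat1 was chosen with this contrast in view, nothing is read from the settings in which it passed. With 1 library left out it ran from 0.68 to 0.85 over 13 fits and missed the threshold in 6 (APOE2 replicate 1, 2 or 5, or APOE3 replicate 3, 4 or 5). Without APOE2 replicates 1 and 2 together, a fit added after the values were seen, the difference was 0.58, under the threshold. The threshold was also missed with no filter on low values, without limma's variance trend and with robust variances. With the mean of the lung epithelium markers as a covariate it was 1.01, with no call, in a fit that called 0 of all genes (936 at an unadjusted p under 0.05). An annotated gene on the opposite strand, Gm37376, shares 453 exon bases with Malat1, and Gm27694 on the same strand shares 86. Of the 31-base stretches of Malat1, 2.42% also occur on the same strand of other genes.

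Neat1 (ENSMUSG00000092274), the neighbour of Malat1 on the chromosome, showed no such separation. Its normalised counts had a lowest value of 2191, a median of 2649.8 and a highest of 2837 in APOE2, against 1944, 3356, 3258, 2902 and 2157 for APOE3 replicates 1 to 5. The APOE3 libraries thus lay on both sides of the whole APOE2 range. The means were 2568 ± 235 (SD, n = 8) and 2723 ± 642 (SD, n = 5), with a log2 difference of −0.06 ± 0.13 (SE) that was smaller than its error. Its sign turned without APOE3 replicate 2 (0.028) or 3 (0.017), and with the lung epithelium (0.074) or mitochondrial (0.022) covariate. The table has 1 row for the gene, so the short and the long Neat1 transcript were not separated.

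The reads of the pair were also set against each other within each library, as a description that restates the values above, since Neat1 was nearly level. Malat1 had 11.1 to 23.3 reads for each Neat1 read in APOE2, with a median of 12.8, and 6.77 to 11.0 in APOE3, with a median of 7.73. The groups did not overlap, although the lowest APOE2 ratio (11.1, replicate 6) and the highest APOE3 ratio (11.0, replicate 1) were almost equal. A ratio within a library needs no scaling between libraries, and it compares reads, not molecules. Where either RNA was primed was not measured.

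**Figure D2:**
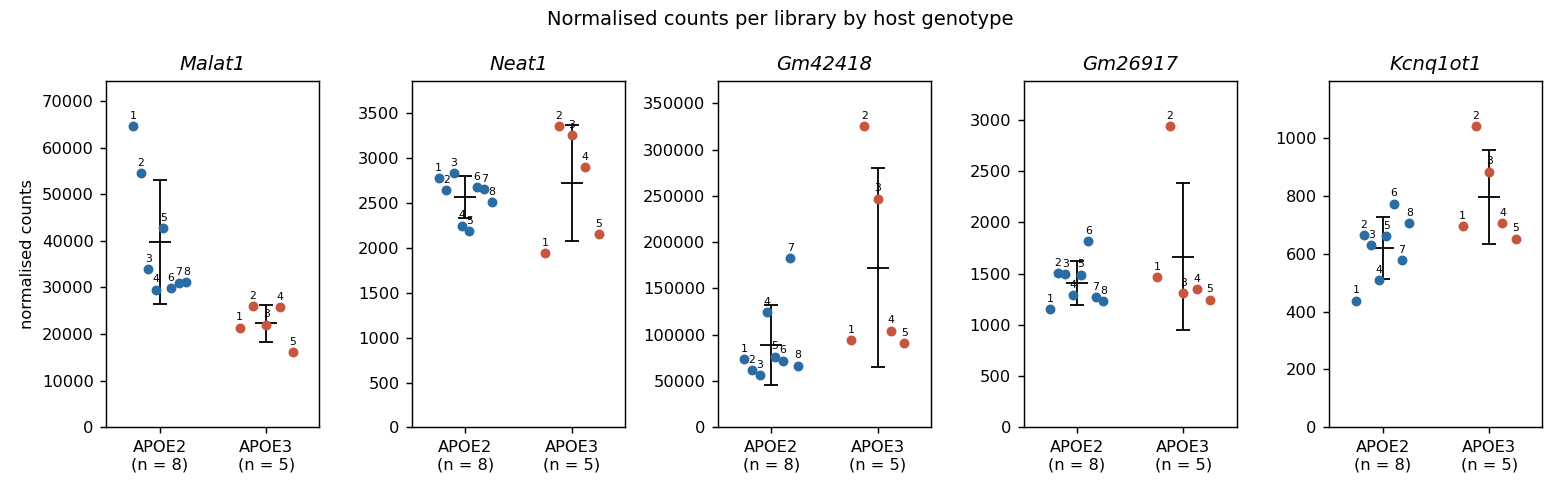
Normalised counts of the 5 noncoding RNAs (vertical axes, starting at 0), with 1 point per library labelled by its replicate number. The mean ± SD is beside the points, for APOE2 (n = 8 libraries) and APOE3 (n = 5 libraries) hosts. Malat1 does not overlap between the hosts, Neat1 does, and APOE3 replicate 2 is the highest library for Gm42418, Gm26917 and Kcnq1ot1.

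Gm42418 (ENSMUSG00000098178) was among the most heavily read rows of the whole table. It ranked between 2 and 6 among all genes in the APOE2 libraries and between 1 and 3 in APOE3, and it was first in APOE3 replicates 2 and 3. Normalised counts had a lowest value of 56568, a median of 72744 and a highest of 182930 in APOE2, and were 93895, 325223, 247147, 104516 and 91252 in APOE3 replicates 1 to 5. APOE3 replicates 2 and 3 stood above all others, followed by APOE2 replicates 7 (182930) and 4 (124849), so high values were found in both hosts. The groups overlapped through APOE2 replicates 4 and 7 alone. The other APOE2 libraries, from 56568 to 76380, lay below every APOE3 library, of which the lowest was 91252. The means were 89339 ± 43236 (SD, n = 8) and 172407 ± 107585 (SD, n = 5), a log2 difference of −0.85 ± 0.30 (SE) with no call. Without APOE3 replicate 2 it shrank to −0.56, and with the lung epithelium covariate to −0.55. The coefficient of variation between libraries was 48.4% in APOE2 and 62.4% in APOE3.

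Gm26917 (ENSMUSG00000097971) lies beside Gm42418 on the same strand but did not share its range. Normalised counts had a lowest value of 1153, a median of 1391 and a highest of 1820.1 in APOE2, against 1469, 2938, 1312, 1348 and 1247 in APOE3 replicates 1 to 5. Apart from APOE3 replicate 2, at 2938, the hosts covered the same range. The means were 1407 ± 214 (SD, n = 8) and 1663 ± 717 (SD, n = 5), a log2 difference of −0.17 ± 0.16 (SE), and without APOE3 replicate 2 it turned to 0.055. There were 37.8 to 143.5 Gm42418 reads per Gm26917 read in APOE2 (median 52.7) and 63.9 to 188.3 in APOE3 (median 77.5). APOE3 replicate 3 had the highest ratio, with Gm42418 high and Gm26917 at 1312, whereas in APOE3 replicate 2 both were at their highest.

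Kcnq1ot1 (ENSMUSG00000101609) was the least read of the 5. Normalised counts had a lowest value of 438, a median of 644 and a highest of 772 in APOE2, and were 695, 1039.5, 882, 706 and 651 in APOE3 replicates 1 to 5. All 8 APOE2 libraries were under the mean of the APOE3 log2 values, but the ranges overlapped between 651 and 772. The means were 619 ± 108 (SD, n = 8) and 795 ± 163 (SD, n = 5), a log2 difference of −0.36 ± 0.15 (SE) with no call, and it was between −0.42 and −0.26 when 1 library was left out. Kcnq1, the potassium channel gene in which Kcnq1ot1 lies, shares 121 exon bases with it on the opposite strand, but had only 36 reads in all, in 5 libraries. Of the 31-base stretches of Kcnq1ot1, 2.96% occur on the same strand of 4643 other genes, so part of its reads could have come from repeats elsewhere.

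Together the 5 RNAs took 1.12% to 2.59% of all reads in APOE2 (median 1.42%) and 1.36% to 4.12% in APOE3 (median 1.63%). The 95% Clopper-Pearson intervals of each RNA's own share, which cover counting error only, reached at most 0.0134 percentage points to either side. The mean share of the 5 together was 0.82 percentage points lower in APOE2 (−0.82), and −0.39 without APOE3 replicate 2. Gm42418 was the largest part in every library, with 0.662% to 2.17% of reads in APOE2 and 1.11% to 3.74% in APOE3, and Malat1 was next. Neat1 took 0.0253% to 0.0332% and 0.0238% to 0.0399%, Gm26917 0.0130% to 0.0221% and 0.0152% to 0.0338%, and Kcnq1ot1 0.00492% to 0.00939% and 0.00795% to 0.0120%. These are shares of reads and are not corrected for length. Of the reads in the 4070 rows annotated as long noncoding, the 5 made up 48.7% to 67.0% in APOE2 and 54.4% to 78.5% in APOE3.

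**Figure D3:**
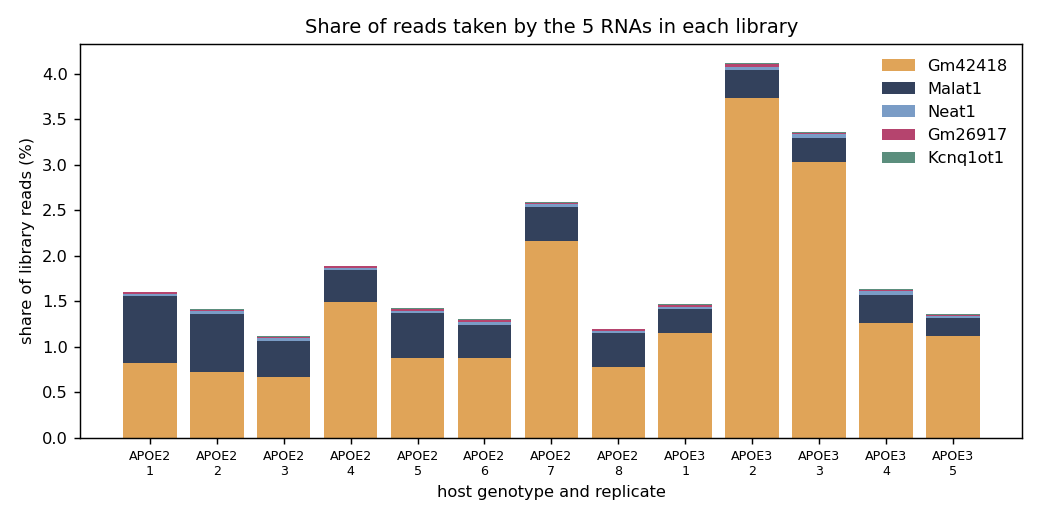
Share of each library's reads (vertical axis, percent) taken by the 5 noncoding RNAs, stacked, with 1 bar per library. The bars of APOE3 replicates 2 and 3 reach 4.12% and 3.36% and that of APOE2 replicate 7 reaches 2.59%, and in all 3 the height comes from Gm42418.

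Whether the 5 moved together from library to library was examined after each host's mean was removed from the log2 values. Over the 10 pairs and 13 libraries, 1 correlation passed adjustment. Gm26917 and Kcnq1ot1 had Pearson's r = 0.72 (permutation p = 0.00355, adjusted p = 0.0355) and Spearman's rho = 0.63 (permutation p = 0.0291, adjusted p = 0.291). Without the 2 libraries farthest from the median of Gm26917, r was 0.50 and no longer passed, and with 1 library left out r ran from 0.64 to 0.81. Malat1 and Neat1 had r = 0.34 (permutation p = 0.182, adjusted p = 0.499) and rho = 0.43 (permutation p = 0.150, adjusted p = 0.559), and r = 0.13 without the 2 farthest libraries. The chromosome 17 pair, Gm42418 and Gm26917, had r = 0.35 (permutation p = 0.408, adjusted p = 0.680) and rho = 0.16 (permutation p = 0.655, adjusted p = 0.705), and r turned to −0.33 without the 2 farthest libraries. Malat1 and Gm42418 had r = −0.06 (permutation p = 0.832) and rho = 0.13 (permutation p = 0.679), and r = −0.23 without the 2 farthest libraries.

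Genes whose group-centred log2 values followed each RNA most closely over the 13 libraries were found by Pearson's r, as a description. For Malat1 they were D11Wsu47e (0.92), Pfdn1 (0.92), a subunit of the prefoldin chaperone, and Snrpb2 (0.88), a protein of the U2 spliceosomal particle. Neat1 was followed by Gm37733 (0.91), Ubap2l (0.87) and the complement gene C2 (0.86). Gm37733 was little read, with 0 reads in APOE3 replicates 1 and 5. Gm42418 was followed by Tmed10 (0.86), a trafficking protein of the early secretory pathway, Sparcl1 (0.86) and the transcription factor Zbtb20 (0.85). The closest to Gm26917 were the RNA methyltransferase Nsun2 (0.95), Ccdc71 (0.94) and Strbp (0.90), and among the closest to Kcnq1ot1 were Ap5m1 (0.84) and Zfp260 (0.83). Nsun2 (1885 normalised counts), Ccdc71 (911) and Strbp (2041) were, like Gm26917, highest in APOE3 replicate 2. Their Spearman's rho with Gm26917 was 0.90, 0.77 and 0.88. These genes were picked from the 3 highest for each RNA among 12403, which all share the libraries' depth and scaling.

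**Figure D4:**
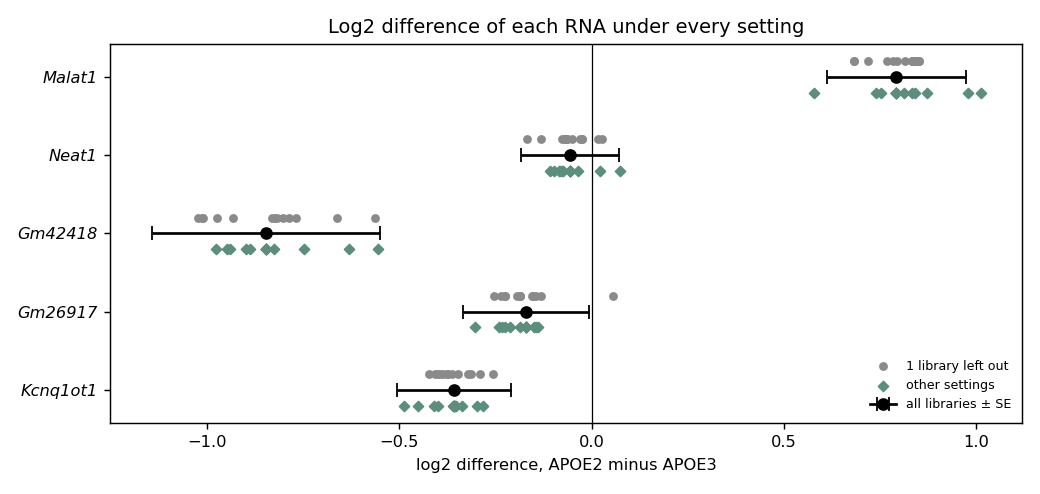
Log2 difference of each RNA (horizontal axis, APOE2 minus APOE3): the black point with its bar is the value from all libraries ± SE, grey circles are fits with 1 library left out and green diamonds are the other settings. Malat1 stays above 0 and Gm42418 and Kcnq1ot1 stay below 0 throughout, while Neat1 and Gm26917 cross 0 in at least 1 setting.

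Genes that work with these RNAs were listed by role, and their counts can be read against the 0.411% higher and 0.379% lower over all genes and a median log2 difference of 0.0004. Counts at an unadjusted p under 0.05 can be read against 14.2% over all genes. Of 20 paraspeckle proteins, 0 were called (6 at an unadjusted p under 0.05), with 9 positive and 11 negative log2 differences and a median of −0.04. Among the most highly read was the RNA-binding protein Hnrnpk (6455 and 5577 mean normalised counts in APOE2 and APOE3). Of 20 nuclear speckle and splicing proteins, 0 were called (4 at an unadjusted p under 0.05), and the median was 0.11. The speckle scaffolds Srrm2 (5784 and 5009) and Son (5770.3 and 4492, log2 difference 0.35 ± 0.11 SE, limma adjusted p = 0.144) led that list. Of 11 tested genes that process the ends of Malat1 and Neat1, mostly RNase P subunits, 0 were called and 0 had an unadjusted p under 0.05. Among them were the RNase P subunit Pop5 (586 and 609) and Mettl16 (489 and 484), a binder of the Malat1 triple helix. Of 17 genes of the nuclear exosome, which degrades nuclear RNA, and its adaptors, 0 were called and 2 had an unadjusted p under 0.05, with Exosc8 (894 and 770) and the helicase Mtrex (709 and 766) the most highly read.

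In the imprinted domain of Kcnq1ot1, 8 of 13 listed genes were read enough to test and 1 was called, also the only 1 at an unadjusted p under 0.05. Over the 8, 2 log2 differences were positive and 6 negative, from −1.06 to 0.39, with a median of −0.03. Cd81, a tetraspanin, had a lowest value of 1681, a median of 1926 and a highest of 2237 normalised counts in APOE2, and 2607, 2608, 2250.0, 3070 and 2711 in APOE3 replicates 1 to 5. It fell in APOE2 with no overlap, by a log2 difference of −0.45 ± 0.10 (SE, limma adjusted p = 0.0382). That call was lost in 9 of the 13 fits without 1 library (APOE2 replicates 1 to 5 and 7, APOE3 replicates 3, 4 and 5), with adjusted p-values up to 0.116. Across all settings the limma, edgeR and DESeq2 adjusted p ran from 0.00229 to 0.618, and with the replicate block it was 0.119. Cd81 shares 104 exon bases with R74862 on the opposite strand. The histone chaperone Nap1l4, the other highly read gene of the domain, had 2296 and 2312 mean normalised counts.

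For ribosomal RNA synthesis, 24 genes were tested and 1 was called. Taf1d, a subunit of the polymerase I selectivity factor, had a lowest value of 2639, a median of 3133 and a highest of 4597 in APOE2, against 2751, 1942, 2100.1, 1760.4 and 1366 in APOE3 replicates 1 to 5. The groups overlapped in APOE3 replicate 1 alone, and the log2 difference was 0.81 ± 0.16 (SE, limma adjusted p = 0.0191). The call was lost without APOE3 replicate 3 (limma adjusted p = 0.0557) or 4 (0.0536), and without APOE2 replicates 1 and 2 together (0.0941). Across all settings the limma, edgeR and DESeq2 adjusted p ran from 0.000536 to 0.420. Small RNAs on the same strand lie in its exons, and the genes 4931406C07Rik and Cep295 overlap it on the opposite strand, so reads may not all be its own. The nucleolar proteins Ncl (12105 and 10898 mean normalised counts) and Npm1 (6046 and 5967) were not called.

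Of 14 other listed rows of ribosomal or structural RNA, 9 were in the table and 4 were tested, with 0 called and 0 at an unadjusted p under 0.05. Mean normalised counts were 1049 and 1009 for Lars2, a tRNA synthetase gene known for reads that resemble ribosomal RNA, 134 and 96.9 for Gm15564, 26.8 and 17.4 for Rn7sk, and 16.2 and 7.37 for Gm23935. Their log2 differences were 0.09 ± 0.14 (SE) for Lars2, 0.51 ± 0.27 for Gm15564, 0.29 ± 0.84 for Rn7sk and 1.03 ± 0.83 for Gm23935. Rn7sk and Gm23935 were near the floor, with 0 reads in APOE2 replicate 3 and in APOE3 replicate 4, respectively. No contrast with Gm42418 (−0.85 ± 0.30 SE) is read from these 4 rows. Of 17 other long noncoding RNAs tested, 0 were called, 2 had an unadjusted p under 0.05 and the median was −0.01. The most highly read were 1700020I14Rik (1245 and 1219.9), Epb41l4aos (833 and 677), Firre (389 and 475), Pvt1 (173 and 197) and Tug1 (157 and 139). Of the 7 mitochondrially encoded mRNAs in the table, 0 were called and 3 had an unadjusted p under 0.05. Mitochondrial reads were 4.22% to 5.04% of a library in APOE2 and 4.30% to 6.29% in APOE3, with the highest value in APOE3 replicate 3.

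Markers of other lung cells differed between the hosts beside these RNAs. Of 12 tested lung epithelium markers 6 were called lower in APOE2, of 14 endothelial markers 2 and of 6 fibroblast and smooth muscle markers 1. Of 9 leukocyte markers 2 were called lower and of 3 erythroid markers 0, and none of any list was called higher. In that order of lists, 10, 11, 3, 2 and 0 markers had an unadjusted limma p under 0.05, against 14.2% over all genes. All 14 endothelial log2 differences were negative. In the epithelial list 11 log2 differences were negative, and that of Foxj1 was 1.44 (15.6 and 4.08 mean normalised counts, not called). Scgb1a1 had 157 and 29.5 mean normalised counts, though its log2 difference was −1.56. The lists' median log2 differences were −2.24, −1.48, −1.20, −0.47 and 0.07. Out of 1000000 reads, epithelial markers summed to 75.8 to 494 in APOE2 against 430.2 to 2640 in APOE3, and leukocyte markers to 69.5 to 324 against 275 to 1516. Most of the leukocyte sum was Lyz2, lysozyme, which alveolar type 2 cells also make, and without it the sum was 32.4 to 101.2 against 60.03 to 93.8. For endothelium the sums were 93.9 to 151 and 142 to 321, for fibroblast and smooth muscle 13.98 to 53.1 and 33.6 to 229, and for erythroid markers 4.80 to 22.0 and 2.84 to 26.8. The surfactant genes Sftpc (1212 and 5949 mean normalised counts, log2 difference −2.23 ± 0.37 SE, limma adjusted p = 0.00611) and Sftpb (101 and 650.0, −2.74 ± 0.45 SE, adjusted p = 0.00611) were among the epithelial genes that fell. Neither passed with no filter (limma adjusted p = 0.0606 and 0.0550), without the trend (0.125 and 0.118) or with robust variance (0.0900 and 0.0552). With the lung epithelium covariate the limma adjusted p-values were 0.539 and 0.550. Both genes are in the list whose mean is that covariate, so that fit cannot show whether their differences hold. Mean normalised counts of others that fell were 24.2 and 95.5 for Esam, 36.5 and 113 for Calcrl, 12.2 and 89.3 for Acta2, 1162 and 5288 for Lyz2, and 32.2 and 116 for Cd74. With the lung epithelium covariate the log2 difference of Lyz2 moved from −2.21 to −0.29 and that of Cd74 from −2.02 to −2.57, neither past the threshold. The neutrophil gene S100a8 had 122 and 118 mean normalised counts and was not called. Epcam had reads in only 6 libraries, the macrophage marker Adgre1 in 4 and the T-cell markers Cd3e and Cd3d in 3 and 2, and Ptprc, which encodes CD45, had 6.90 and 14.01 mean normalised counts. Calls of Esam and Calcrl (endothelium), Acta2 (smooth muscle), Lyz2 and Cd74 (leukocyte list), and Slc34a2 and Sftpa1 (epithelium) were lost without at least 1 of APOE3 replicates 3 and 4. The part of such cells in the values of the 5 RNAs was not tested beyond the covariate values given above, where Malat1 moved from 0.79 to 1.01 and Gm42418 from −0.85 to −0.55.

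**Figure D5:**
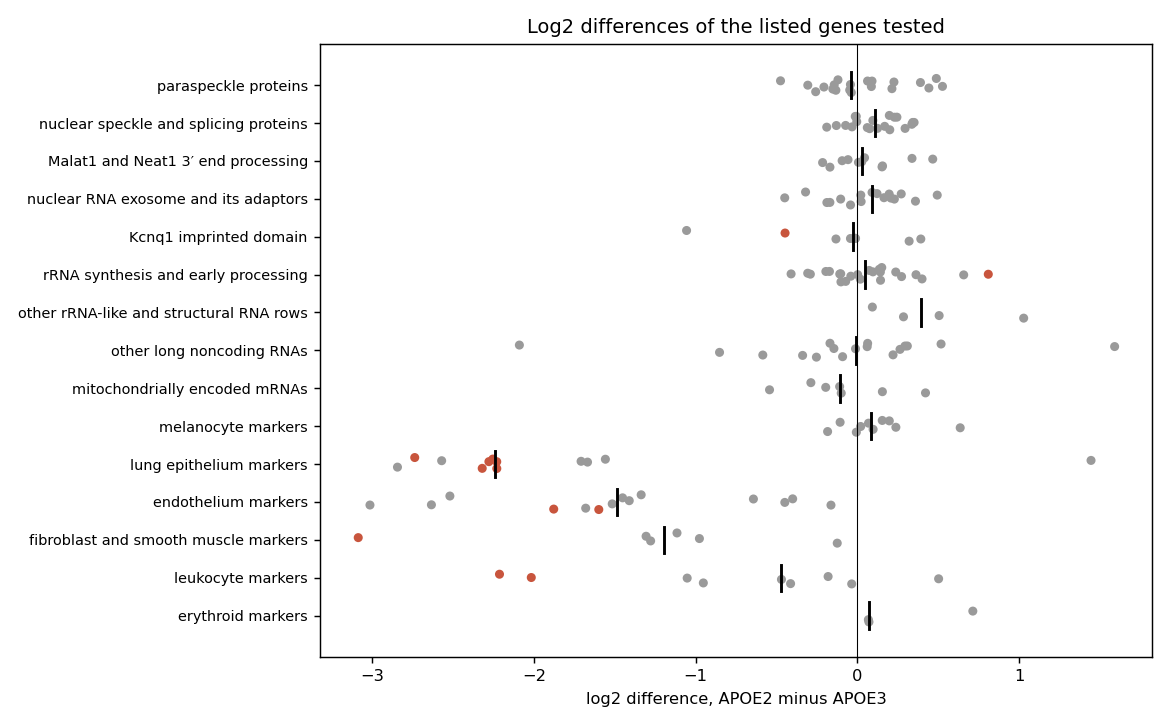
Log2 differences (horizontal axis, APOE2 minus APOE3) of every tested gene in 15 lists, with 1 point per gene, called genes in red and a bar at each list's median. The medians of the lists of nuclear RNA proteins, of ribosomal RNA synthesis and of the Kcnq1 imprinted domain lie around 0. Their only called genes are Taf1d (ribosomal RNA synthesis) and Cd81 (imprinted domain). The lung epithelium list has its median at −2.24.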

How the data were processed

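The authors deposited normalised counts, a gene-level signal with no negative values; per the submitters' processing notes, the tools were STAR 2.6.0, featureCounts and DESeq2 1.28.1 on mm10. The annotation, the strand setting and the treatment of multi-mapping reads are not given in the sources used here. Each column's nonzero values were whole multiples of 1 step (100% within 0.01), which gave reads, 7080308 to 13039989 per library. No molecular identifiers were counted, so reads are not separate molecules. Identifiers were paired with symbols in GENCODE M21 (22649 matched, 7 not).

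Values were compared as log2(value + 1), a pseudocount of 1 that understates changes of low genes, with limma 3.58.1 in R 4.3.3 (intensity trend, two-sided), over genes with a mean of at least 10, with Benjamini-Hochberg adjustment at 0.05. The step was tested on simulated data. Members and lists were chosen with earlier results of these data known. Named genes are the 5 members and overlapping genes, up to 4 called genes with the smallest p and the 2 most highly read per list (5 for noncoding lists), and the 3 genes most correlated with each member. Markers with few reads were named after their values were seen. Some genes that this rule names entered the counts and are not reported here singly. Correlations used permutation within genotype (100000 draws), adjusted over 10 pairs; their p-values, the fit without APOE2 replicates 1 and 2, the leukocyte sum without Lyz2 and the correlations without the 2 farthest libraries were added after seeing the data. Other alternatives were pseudocounts of 0.5 and 5, no filter, a minimum mean of 50, 3 scalings, the replicate block, limma without trend or with robust variance, edgeR 4.0.16 and DESeq2 1.42.0 on the reads, 2 covariates, and each library left out.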

Additional observations from a re-analysis of the deposited data

Results flagged for a closer look

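Within each genotype, the highest and the lowest library were screened with Dixon's criterion (95% level), which sets the distance to the next library against the full range. Of 44 screens 3 stood apart, where chance gives about 1 in 20, or 2.2. Gm26917 was 2938 normalised counts in APOE3 replicate 2, far above the other 4 APOE3 libraries, and this library sets the sign of the Gm26917 difference. Long noncoding RNAs together took 3.86% of reads in APOE2 replicate 7, the library in which Gm42418 was highest among APOE2. The endothelial gene Calcrl was 13.6 normalised counts in APOE2 replicate 1, the library with the most Malat1.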

How the results depend on the processing

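Counts of genes called higher and lower in APOE2 (51 and 47), of listed nuclear RNA genes called (2) and of markers of other cells called (11) moved by over 1.5 times in these settings, in that order. They were 5, 4, 0 and 1 with no filter, 0, 0, 0 and 0 without the trend (1599 genes at an unadjusted p under 0.05), 0, 0, 0 and 0 with the lung epithelium covariate (936), 28, 17, 1 and 7 with the mitochondrial covariate, 153, 158, 6 and 19 with DESeq2, and 7, 13, 0 and 6 without APOE2 replicates 1 and 2. The lung epithelium covariate is itself a mean of counted markers, so no conclusion is drawn from its 0 markers. A pseudocount of 5 gave 73 lower, edgeR 77 lower, and robust variance 5 markers. With 1 library left out the counts ran from 5 to 131, from 4 to 97, from 0 to 3 and from 3 to 17; of all genes and of markers, the fewest were called without APOE3 replicate 3 and the most without APOE3 replicate 1. The cause was not tested.

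The replicate block gave 17, 26, 1 and 7. Same-numbered libraries did not deviate together (correlations from −0.063 to 0.014 over 5 pairs). These correlations cannot show whether such libraries share a date or batch, so the block is given as a setting only. With the block the Malat1 difference was 0.98.

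Scalings moved the median over all genes to between −0.052 and 0.021 and turned no member's sign. The correlation of Gm26917 with Kcnq1ot1 lost its call with Spearman (0.63), without the 2 farthest libraries (0.50) and in 7 of 13 fits without 1 library (0.64 to 0.81 over all 13). That of Gm42418 with Gm26917 reversed without the 2 farthest libraries (−0.33), and ran from −0.30 (without APOE3 replicate 2) to 0.49 without 1 library. The share of reads in the 5 RNAs differed by −1.08 to −0.39 percentage points without 1 library, and by −0.89 outside mitochondrial reads. Depth limits little here, since the least read member, Kcnq1ot1, had 497 to 920 reads per library.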
